A study of Homo sapiens with 14 samples.

Results

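Forkhead genes of a pair of clusters, FOXQ1, FOXF2 and FOXC1 on chromosome 6p25 and FOXF1, FOXC2 and FOXL1 on chromosome 16q24, were examined by ChIP-seq in DU145 cells, a line established from a human prostate carcinoma. A peak belonged to the loci when it lay in hg19 at 1250001 to 1700000 of chromosome 6 (450 kb) or at 86300001 to 86650000 of chromosome 16 (350 kb), in any of 14 deposited lists. This gave 419 of 227479 peaks, 182 at 6p25 and 237 at 16q24. The 2 loci were chosen by measured values, the length covered by H3K27me3 peaks in control cells and its absence in knockdown cells, so these values are descriptions and support nothing further. Gene positions are known here to the nearest 1 kb only (1313 kb, 1390 kb and 1611 kb for FOXQ1, FOXF2 and FOXC1, and 86544 kb, 86601 kb and 86612 kb for FOXF1, FOXC2 and FOXL1), and whether a peak is exonic, intronic or in a promoter was not determined.

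The control cells carry a scramble construct and the knockdown cells a stable EED knockdown, and both were selected with puromycin. The labels name 1 construct for the knockdown, so its own effects and those of EED cannot be told apart, and the labels do not say whether the lines are clones. Antibodies were against EED, H3K27me3, RING1A, RING1B, BMI1 and ubiquitylated histone H2A (uH2A), for which there was one antibody from rabbit and another from mouse, and each group is 1 library, with no replicate and no test between cell lines. The lists hold 1372 to 56011 peaks, sequencing depth is unknown, and the libraries of EED and uH2A differ from the other 8 in culture description and chromosome naming. That split holds both cell lines of each antibody and gives no second value for any of them. EED itself was not measured as RNA or protein, and its own ChIP gave 13082 peaks in control and 1372 in knockdown cells. Intervals below are 95% Clopper-Pearson intervals. They cover counting error only and treat peaks as independent. Where a count was 0, the limit of 3 counts of the total is given as well, named as the 3-count limit.

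Forkhead genes encode transcription factors with a winged-helix DNA-binding domain. FOXF1, FOXF2 and FOXL1 act in the mesenchyme of gut and lung, FOXC1 and FOXC2 in mesoderm, vessels and the eye, and FOXQ1 in epithelia, where it is known in carcinoma for a role in the epithelial-mesenchymal transition. Developmental genes of this kind are textbook targets of Polycomb. The Polycomb complex PRC2, with EED as a core subunit, places H3K27me3, and PRC1, with RING1A or RING1B as ubiquitin ligase and BMI1 as one possible partner, places uH2A, often at CpG-rich promoters.

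The promoters of the 6p25 genes are given here because H3K27me3, RING1A and rabbit uH2A peaks lie at or beside all 3 gene positions. These promoters were not compared by position with the peaks, and a link between base composition and peaks was not tested. The promoter set used here holds the 250 bases before the start of FOXQ1, FOXF2 and FOXC1, 3 of the 6 genes. FOXF1, FOXC2 and FOXL1 have no entry in that set and are not shown. Coordinates of these sequences, and of these only, are GRCh38.p14, with each CG dinucleotide in capitals.
FOXQ1, chr6:1311848-1312097, plus strand: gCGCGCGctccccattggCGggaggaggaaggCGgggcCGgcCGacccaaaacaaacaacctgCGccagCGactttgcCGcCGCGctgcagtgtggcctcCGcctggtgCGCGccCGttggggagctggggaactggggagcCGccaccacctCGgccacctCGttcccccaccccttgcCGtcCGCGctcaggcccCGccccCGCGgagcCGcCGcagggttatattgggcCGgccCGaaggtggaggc
FOXF2, chr6:1389326-1389575, plus strand: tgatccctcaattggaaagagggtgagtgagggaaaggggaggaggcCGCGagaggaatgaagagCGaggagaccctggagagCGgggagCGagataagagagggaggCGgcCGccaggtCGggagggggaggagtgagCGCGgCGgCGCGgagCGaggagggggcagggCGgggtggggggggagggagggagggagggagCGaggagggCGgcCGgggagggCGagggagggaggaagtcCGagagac
FOXC1, chr6:1609665-1609914, plus strand: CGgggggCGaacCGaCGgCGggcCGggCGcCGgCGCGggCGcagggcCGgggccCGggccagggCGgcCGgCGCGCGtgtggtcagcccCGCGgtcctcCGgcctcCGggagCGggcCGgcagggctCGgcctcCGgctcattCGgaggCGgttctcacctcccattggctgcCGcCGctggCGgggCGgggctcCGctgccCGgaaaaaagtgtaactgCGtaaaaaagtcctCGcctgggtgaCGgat
The motif CG, which reads the same on both strands and cannot overlap itself, occurs 29 times before FOXQ1, 20 times before FOXF2 and 37 times before FOXC1, against a median of 11 over 35116 promoter windows of 250 bases, of which 93.9% hold at least 1. FOXC1 has more CG than 96.0% of these windows, FOXQ1 more than 85.9% and FOXF2 more than 67.6%. The bases G and C make up 76.8%, 74% and 70.8% of the 3 sequences, in the order FOXC1, FOXQ1, FOXF2, against a median of 58.0%. The forkhead core motif TGTTT, counted on both strands with overlaps, occurs 2 times before FOXQ1 and in neither of the other sequences, and 40.4% of all windows hold it.

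In control cells H3K27me3 was the densest signal at both loci, and in knockdown cells its list held no peak at either. At 6p25 there were 120 H3K27me3 peaks covering 50.3 kb (11.2% of the locus) in control cells, and 0 in knockdown cells. At 16q24 there were 169 peaks covering 71.9 kb (20.5%), and 0 in knockdown cells. None of the 289 control peaks overlapped a knockdown H3K27me3 peak, with an interval up to 1.27% and a 3-count limit of 1.04%, while 3.81% of all control H3K27me3 peaks were kept. The knockdown H3K27me3 peaks nearest to the genes lay 449.6 kb from FOXQ1 and 537.4 kb from FOXF1, both outside the loci. Of the 100-kb windows with at least 5 kb of control H3K27me3, 6 lie in or across these loci and all 6 had 0 bp in knockdown cells, as had 84.9% of the 529 such windows in the genome. Nothing is read from these counts, since the loci were picked on them.

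**Figure D1:**
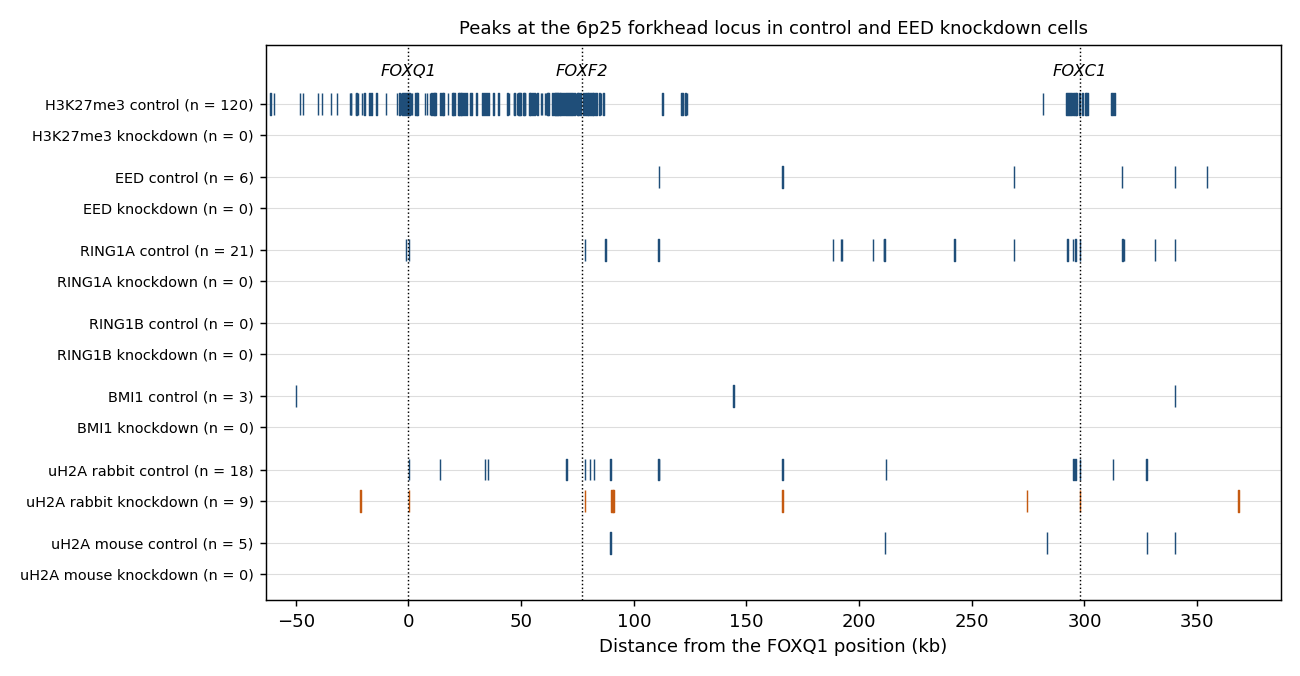
Peaks at 6p25 as bars along the distance in kb from the FOXQ1 position, 1 row per antibody and cell line, with dotted lines at the 3 genes. The 120 control H3K27me3 peaks gather from FOXQ1 to FOXF2 and again at FOXC1, and of the knockdown libraries only uH2A rabbit shows peaks (9).

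The mark was laid out in blocks. With control H3K27me3 peaks joined across gaps of at most 5 kb, 6p25 held 9 blocks and 16q24 held 7, and the 3 largest carried 94.4% and 91.8% of the covered length. One block at 6p25, 1287051 to 1399900, took in both FOXQ1 and FOXF2, with 97 peaks covering 39.9 kb (35.4%) of its 112.85 kb. In RefSeq's gene order the long noncoding RNA FOXF2-DT and the protein-coding LOC124905366 lie between these genes. FOXC1 had a block of its own, 1604926 to 1614650, where 7 peaks covered 63.5% of 9.725 kb. Between the FOXF2 and the FOXC1 side lay 157.85 kb (1436776 to 1594625) without any H3K27me3 peak.

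At 16q24 the mark was dense around FOXF1, and FOXC2 and FOXL1 lay between blocks. The FOXF1 block, 86510351 to 86557900, had 38 peaks covering 66.1% of 47.55 kb, the highest share of the 4 blocks that span over 20 kb. In RefSeq's gene order the long noncoding RNA FENDRR comes directly before FOXF1, on the lower-coordinate side. The block need not belong to FOXF1 alone. A pair of further blocks lay far on the lower-coordinate side. One, 86343626 to 86401775, ended 142.2 kb from FOXF1 and had 65 peaks over 32.7% of its length. The other, 86307026 to 86335000, ended 209 kb away and had 40 peaks over 55.4%. FOXC2 and FOXL1 lay in a stretch of 69.15 kb (86557901 to 86627050) with no H3K27me3 peak. The nearest one to either gene, 86627051 to 86627125, was 26.1 kb from FOXC2 and 15.1 kb from FOXL1.

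**Figure D2:**
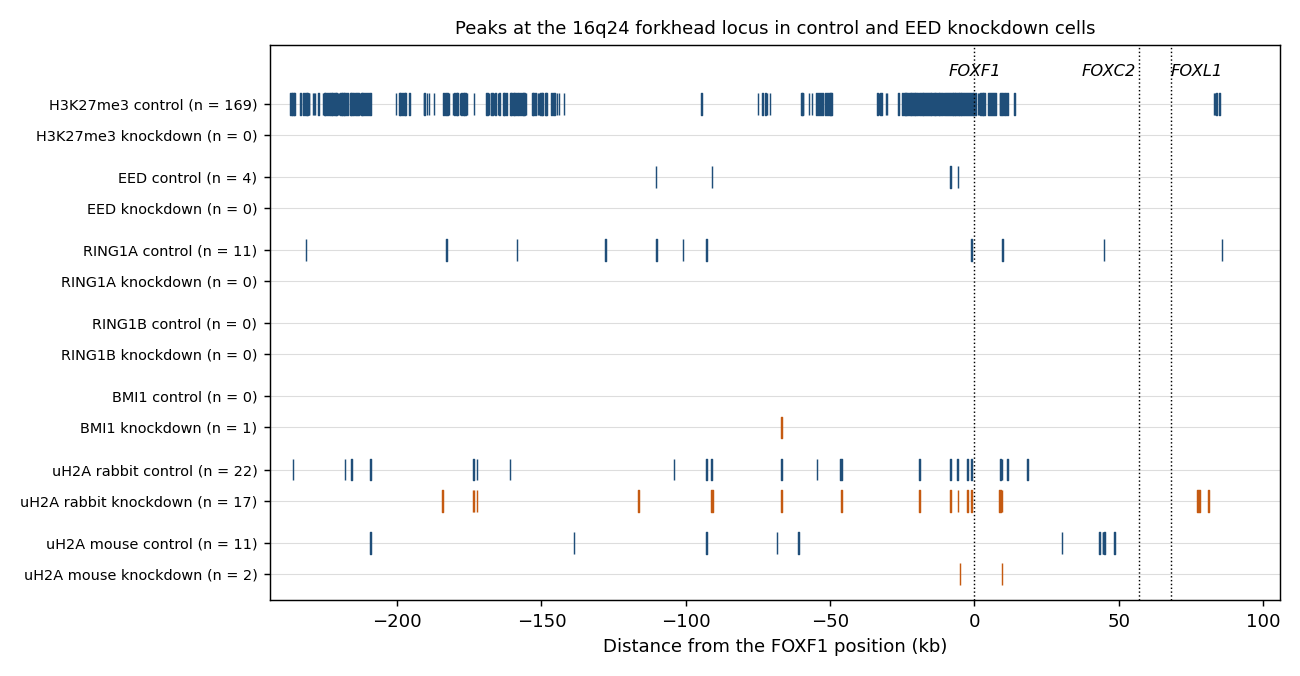
Peaks at 16q24 as bars along the distance in kb from the FOXF1 position, 1 row per antibody and cell line, with dotted lines at the 3 genes. Control H3K27me3 is dense at FOXF1 and in 2 blocks far below it, and the FOXC2 and FOXL1 positions lie in a 69.15-kb stretch without it.

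The edges of the loci cut into marked chromatin on one side only. Control H3K27me3 peaks covered 5.58 kb of the 100 kb below the 6p25 locus and 23.1 kb of the 100 kb below the 16q24 locus, and 0 bp of the 100 kb above each. The last peak outside on the lower side was 3.68 kb from the 6p25 bound, with a height of 33.0, and the first inside was 1.75 kb from it, with a height of 36.5. For 16q24 these were 3.70 kb with a height of 44.5 and 7.03 kb with a height of 55. Height is the authors' value for a peak and has no stated scale. The densest window at 6p25, 1300001 to 1400000, ranked 5 of 4910 windows of 100 kb that hold a control H3K27me3 peak, with 38.2 kb covered. Its place depends on where the windows begin: the densest window at 6p25 ranked 21 with windows shifted by 50 kb, and 14 with windows of 50 kb. At 16q24 the windows from 86300001 and from 86500001 ranked 7 and 9, with 34.4 and 31.5 kb, and the densest ranked 3 with windows of 50 kb.

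Long H3K27me3 peaks were found beside 4 of the 6 genes, and others lay up to 214.75 kb from the nearest of these genes. Peaks of 1000 bp or more made up 22 of 289 (7.61%), and 4.20% of all control H3K27me3 peaks. Long peaks add to the covered length on which the loci were chosen, so this is a description and nothing is read from it. The 3 longest at 6p25 were 3650 bp (1382301 to 1385950, 4.05 kb from FOXF2), 3000 bp (1310051 to 1313050, across the FOXQ1 position) and 2650 bp (1604926 to 1607575, 3.43 kb from FOXC1). At 16q24 a peak of 4000 bp (86539401 to 86543400) ended 0.6 kb from FOXF1, and 2 of 2825 bp began at 86526176 and 86533576 in the same block. The median length was 275 bp at each locus and 200 bp over the whole list. Heights at the loci ran from 27 to 158.8. The highest of 6p25 was the 2650-bp peak beside FOXC1, and that of 16q24 (143.8) lay 5.45 kb from FOXF1 at 86537426 to 86538550.

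Taken gene by gene, control H3K27me3 covered more of the window at 4 genes than at FOXL1 and FOXC2, with no cutoff set. The loci were chosen on this covered length and no other genes were measured, so the shares are descriptions. The window around a gene reached 20 kb to each side, cut at the midpoint between FOXC2 and FOXL1, which lie 11 kb apart. Other genes lie near these positions, such as the protein-coding MTHFSD between FOXF1 and FOXC2 in RefSeq's gene order. The protein-coding GMDS comes directly after FOXC1 in that order, on the higher-coordinate side. A peak in a window was therefore not assigned to the gene that names it. Control H3K27me3 peaks covered 64.1% of the FOXF1 window (26 peaks), 44.8% of the FOXF2 window (31), 23.9% of the FOXQ1 window (28) and 19.6% of the FOXC1 window (10). They covered 3.43% of the FOXL1 window (5 peaks) and 0% of the FOXC2 window. All 6 windows had 0% in knockdown cells. With 1 library there is no spread by which to tell neighbours in this order apart.

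**Figure D3:**
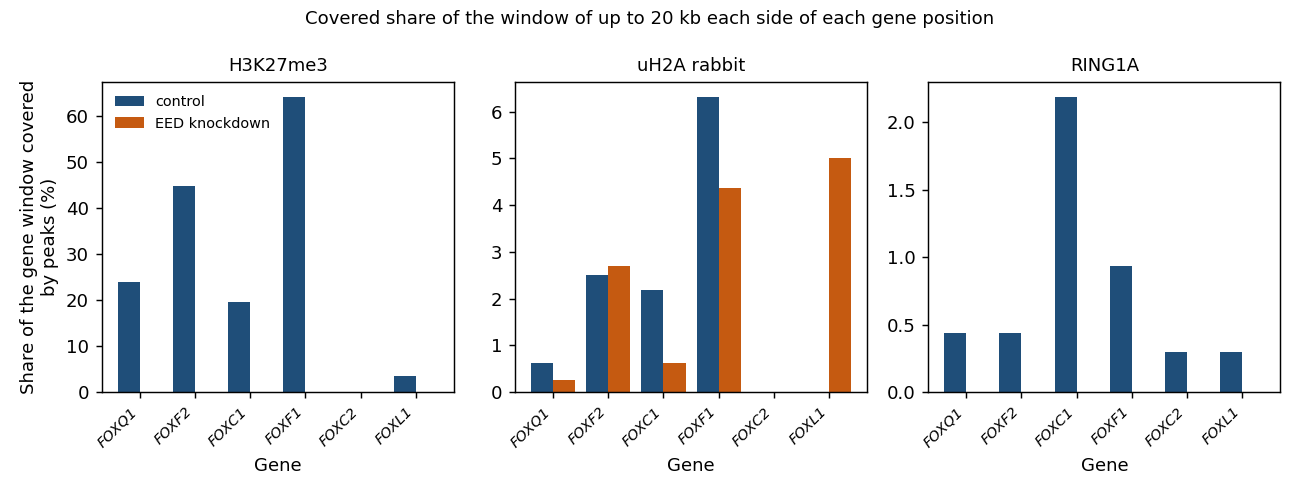
Share of each gene window covered by peaks (%, linear axes of different height), control in blue and knockdown in orange, 1 library per bar and no error bars. H3K27me3 and RING1A bars are present in control cells only, while uH2A rabbit has bars in both cell lines at 4 genes and at FOXL1 in knockdown cells alone. At FOXF2 the uH2A rabbit knockdown bar comes mostly from peaks of 725 and 275 bp that overlap no control peak.

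EED peaks were few beside those of H3K27me3. The control list had 6 EED peaks at 6p25 and 4 at 16q24, of 75 to 175 bp, and the knockdown list had none. No EED peak lay within 20 kb of FOXQ1, FOXF2, FOXC2 or FOXL1 in control cells. The FOXC1 window had 1, at 18.7 kb (1629676 to 1629750), on the side where RefSeq's gene order places GMDS. FOXF1 had 2, 86535701 to 86535775 and 86538201 to 86538375, the second 5.63 kb from the gene. The tallest EED peaks were 1653076 to 1653250 at 6p25, with a height of 35.2, and 86453051 to 86453150 at 16q24, with a height of 31.4, and neither met H3K27me3. The 2 peaks at FOXF1 were the only ones of 10 that met a control H3K27me3 peak (20.0%, interval 2.52 to 55.6), against 5.40% of all control EED peaks. The loci were chosen for their H3K27me3 and this share was not adjusted for it, so nothing is read from the difference. Seen from the mark, 2 of 289 H3K27me3 peaks met EED (0.692%, interval 0.0839 to 2.48), against 1.92% over the whole list. None of the 10 EED peaks was kept (interval up to 30.8%, 3-count limit 30.0%), and 5.79% of all EED peaks were.

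Of the PRC1 proteins, RING1A had a control peak within 20 kb of each of the 6 genes, and within 10 kb of 4 of them. RING1B had none. RING1A also has the longest list, with 56011 control peaks. Elsewhere 77.6% of the 523 H3K27me3-dense windows of 100 kb held a control RING1A peak and 17.0% a RING1B peak. Those windows are wider than the gene windows, and nothing is read from the 6 and the 0. RING1B, the other ubiquitin ligase, had no peak at either locus in either cell line. Its nearest control peaks were 940.9 kb from FOXQ1 and 537.4 kb from FOXF1, and its lists are short (5155 control and 1739 knockdown peaks). With no RING1B peak here, an overlap with H3K27me3 could not arise, and nothing is read from its count of 0 (3.61% of all control H3K27me3 peaks met RING1B). BMI1 had 3 control peaks of 75 to 100 bp at 6p25, at 1263026, 1457226 and 1653051, all over 40 kb from a gene, and 0 at 16q24. The tallest was the first, with a height of 63.8. None of them met H3K27me3 (10.4% of all BMI1 peaks did), so 0 of 289 H3K27me3 peaks met BMI1 (5.83% over the whole list), a count that 3 peaks could hardly have moved. None was kept, against 21.1% of all BMI1 peaks, which 3 peaks cannot tell apart. The knockdown list had 1 BMI1 peak at the loci, 86477126 to 86477200, which lies on a uH2A rabbit peak present in both cell lines. It is new in the sense of lacking a control BMI1 peak, as are 25.0% of knockdown BMI1 peaks.

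RING1A had 21 control peaks at 6p25 and 11 at 16q24, of 75 to 225 bp. The tallest at 6p25, 1610976 to 1611150 with a height of 66.0, lay across the FOXC1 position, and FOXC1 also had the most RING1A, with 6 peaks over 2.19% of its window. FOXQ1, FOXF2 and FOXF1 had 2 each, and FOXC2 and FOXL1 1 each, at 12.0 and 17.7 kb. The tallest at 16q24, 86312426 to 86312600 with a height of 70.0, lay 231.4 kb from FOXF1. Of the 32 peaks, 12 met H3K27me3 (37.5%, interval 21.1 to 56.3), against 6.28% of all RING1A peaks. These loci hold far more H3K27me3 than the genome at large, and that difference was not adjusted for. In the other direction 11 of 289 H3K27me3 peaks met RING1A (3.81%, interval 1.92 to 6.71), against 9.07%. No RING1A peak was present at the loci in knockdown cells, so 0 of 32 were kept (interval up to 10.9%, 3-count limit 9.38%), against 4.07% of the whole list.

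The rabbit uH2A antibody had peaks at both loci in both cell lines. It had 18 control and 9 knockdown peaks at 6p25, covering 3.55 and 2.48 kb, and 22 and 17 at 16q24, covering 6.0 and 5.65 kb. Over both loci the knockdown length was 85.1% of the control length. Knockdown peaks that overlapped a control peak gave 4.63 kb of this (48.4% of the control length) and the 9 new peaks 3.5 kb (36.6%), 1.0 kb of it from a single peak near FOXL1. Over the whole list the ratio was 49.0%, made up of 37.97% from overlapping and 11.04% from new peaks. The ratio was 48.5% over the 523 H3K27me3-dense windows elsewhere. For the other antibodies the same ratio at the loci was 0% for H3K27me3, EED and RING1A, 9.52% for the mouse uH2A antibody and 30.0% for BMI1, the last from 4 short peaks.

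By number of sites the rabbit antibody stood closer to its whole list. Of 40 control peaks, 16 were kept (40.0%, interval 24.9 to 56.7), against 28.8% of all its control peaks and 32.9% (interval 31.4 to 34.3) of those in dense windows elsewhere, so the interval at the loci includes both. Among the 40, 15 belonged to the tallest 25% of the list by height, against 24.6% of all peaks after ties, and 12 of these 15 were kept. In the whole list 70.6% of the tallest class were kept. Of the other 25 peaks at the loci 4 were kept (16%), against 15.2% over the whole list. At the loci 27 of 40 peaks met H3K27me3 (67.5%, interval 50.9 to 81.4), against 10.1% of all, again without adjusting for the H3K27me3 content of the loci, and 11 of these 27 were kept (40.7%), beside 5 of the 13 that met none (38.5%). Over the whole list these shares were 32.3% and 28.4%. From the mark, 25 of 289 H3K27me3 peaks met uH2A rabbit (8.65%, interval 5.68 to 12.5), against 7.17%.

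**Figure D4:**
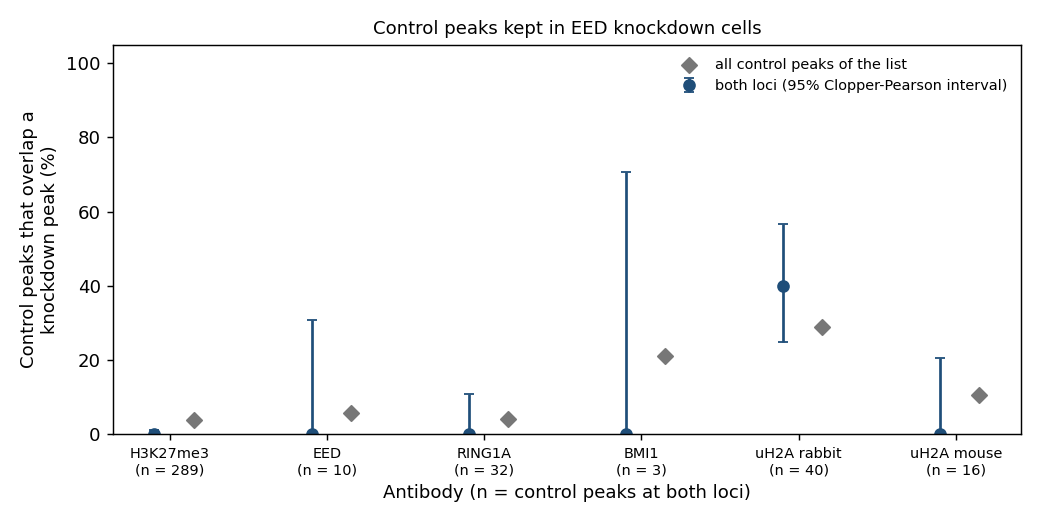
Share of control peaks that overlap a knockdown peak of the same antibody (%), with circles for both loci, bars for 95% Clopper-Pearson intervals and diamonds for the whole list; RING1B has no peak at the loci. Only uH2A rabbit has kept peaks at the loci (40.0%), and its interval includes the 28.8% of the whole list.

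By locus, 4 of 18 uH2A rabbit peaks were kept at 6p25 (22.2%, interval 6.41 to 47.6) and 12 of 22 at 16q24 (54.5%, interval 32.2 to 75.6), 2 intervals that overlap. At FOXF1, 7 of 9 control peaks within 20 kb were kept, against 1 of 2 at FOXQ1, 1 of 5 at FOXF2 and 1 of 4 at FOXC1. Peak height differed as well: the median control peak stood above 43.2% of the list at 6p25 and above 81.2% at 16q24. In the whole list 70.6% of the tallest 25% were kept, and these contrasts between loci and genes were not adjusted for height. In the far block at 86307026 to 86335000, which also carried dense H3K27me3, 0 of 4 were kept, although 2 of these stood above 85.2% and 92.0% of the list in height. The next block, 86343626 to 86401775, kept 2 of 3. The tallest uH2A rabbit peaks of each locus lay away from H3K27me3 and were kept. At 6p25 this was 1478851 to 1479125, 88.9 kb from FOXF2, above 96.7% of the control list. Its knockdown counterpart was longer, 1478601 to 1479125, and above 96.9% of its list. At 16q24 it was 86452776 to 86453250, 90.75 kb from FOXF1, above 97.9% of the control list, and 86452651 to 86453450 in knockdown cells, above 98.5%.

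At each of FOXQ1, FOXF2, FOXC1 and FOXF1, control peaks of H3K27me3, RING1A and uH2A rabbit met in a region within 1.2 kb of the gene position. In knockdown cells uH2A rabbit alone had a peak in these 4 regions. At FOXQ1 the region was 1313276 to 1313575. The uH2A rabbit peak there went from 175 to 100 bp, and its height rank from above 46.4% of the control list to above 4.47% of the knockdown list. At FOXF2 it was 1391151 to 1392500. There the peak went from 350 to 75 bp and from above 90.8% to above 4.47%. FOXC1 had the region 1610776 to 1611175, across its position, and here the peak was longer in knockdown cells, 250 against 175 bp, and ranked above 63.4% against 22.3%. At FOXF1, where the region was the 4000-bp H3K27me3 peak, a uH2A rabbit peak 0.925 kb from the gene went from 300 to 250 bp and from above 90.8% to above 66.3%. The rank was thus lower in knockdown cells at 3 of the 4 genes and higher at FOXC1, with 1 library on each side and lists of different length. The RING1A peaks of these regions, 1313376 to 1313475, 1391201 to 1391275, 1610976 to 1611150 and 86542876 to 86543075, had no knockdown counterpart. In all, 9 control regions held H3K27me3 and at least 2 further antibodies, and 7 of them had a uH2A rabbit peak in knockdown cells. All 9 already held a control uH2A rabbit peak and were picked with their values seen, and 28.8% of such peaks were kept over the whole list, so nothing further is read from the 7. The exceptions were 1607776 to 1609200, 1.8 kb from FOXC1, and 86334401 to 86335000, 209 kb from FOXF1, with no peak of any antibody in knockdown cells.

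**Figure D5:**
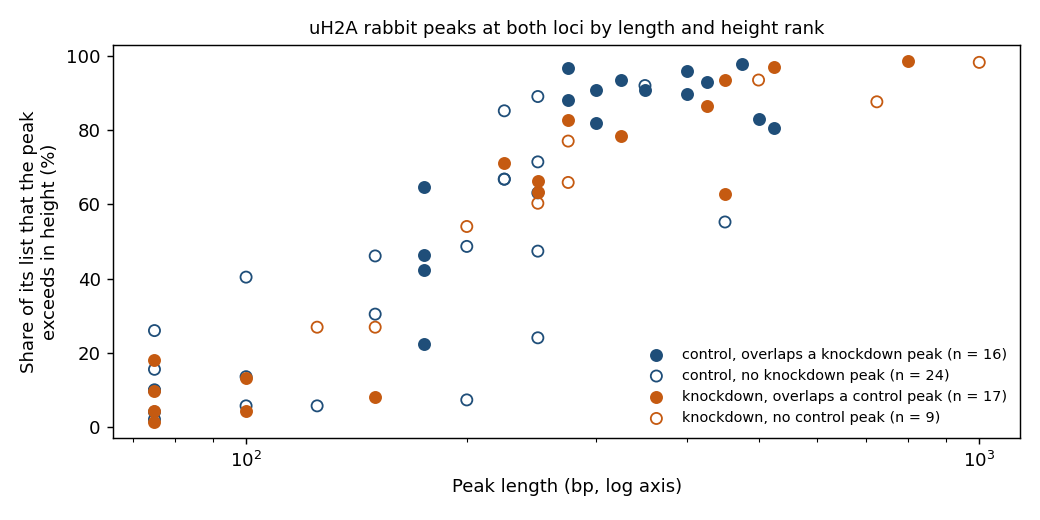
Each uH2A rabbit peak at both loci by its length (bp, log axis) and the share of its own list that it exceeds in height (%), blue for control and orange for knockdown, filled where the other cell line has an overlapping peak. Of the 16 kept control peaks, 12 are in the tallest 25% of their list, and the longest point is the 1000-bp knockdown peak near FOXL1.

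In knockdown cells 9 of 26 uH2A rabbit peaks at the loci had no control peak of that antibody, against 30.2% of its whole knockdown list. The longest lay by FOXL1, the gene known from the mesenchyme beneath the gut epithelium, 9.0 kb from its position at 86621001 to 86622000. It was 1000 bp long, stood above 98.2% of the knockdown list in height, and ranked 16 by length and 37 by height among 3421 new peaks. No control uH2A rabbit peak lay within 43.9 kb of it, and no other antibody had a peak there in either cell line. A second new peak, 86624976 to 86625250, lay beside it. Neither met control H3K27me3. Near FOXF2 a new peak of 725 bp (1403026 to 1403750, 13.0 kb from the gene) lay 250 bp from a control peak and is less clearly a new site. Another new peak, 86427401 to 86427900, 116.1 kb from FOXF1, stood above 93.5% of its list. The others were 125 to 275 bp long and stood above 26.9% to 65.9%.

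The mouse uH2A antibody gave a different picture at the same genes. It had 5 control peaks at 6p25 and 11 at 16q24, of 75 to 200 bp, and 0 and 2 in knockdown cells. The tallest at 6p25 was 1596351 to 1596500, with a height of 37.3 and 14.5 kb from FOXC1. The tallest at 16q24 was 86587226 to 86587425, with a height of 46.3, one of 5 peaks over 2.84% of the FOXC2 window, where the rabbit antibody and H3K27me3 had none. These 5 lay 8.35 to 13.6 kb from FOXC2 on the FOXF1 side, where RefSeq's gene order also places MTHFSD, and they need not belong to FOXC2. One of 16 met H3K27me3 (6.25%, interval 0.158 to 30.2), against 4.94% of all, again without adjusting for the H3K27me3 content of the loci. From the mark, 1 of 289 H3K27me3 peaks met uH2A mouse (0.346%, interval 0.00876 to 1.91), against 4.31%. None of the 16 was kept (interval up to 20.6%, 3-count limit 18.8%), against 10.7% of all. Both knockdown peaks, 86538926 to 86539000 and 86553551 to 86553675, were new (47.1% of its knockdown list are), and both lay on control H3K27me3 within 10 kb of FOXF1, 5.00 and 9.55 kb from it. The second overlapped a uH2A rabbit peak of the knockdown cells.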

How the data were processed

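ChIP-seq of 7 antibodies in control and EED knockdown DU145 cells gave 14 deposited peak lists, 1 per library. The submitters' processing notes name Bowtie and the build hg19. HPeak, a peak caller, is named on the deposited lists, and its settings and any use of input are not stated. Each list gives chromosome, start, end, length in bp, a height and a score. The deposited height was taken as the signal of a peak, which was ranked within its own list only, and the deposited score was not used. The depth of each library is unknown.

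Overlap meant at least 1 bp, and a control peak was kept when a peak of its antibody in knockdown cells overlapped it. Regions where antibodies met joined overlapping control peaks, so not every pair of peaks in a region need overlap. An H3K27me3-dense window was one of 100 kb with at least 5 kb covered. Gene windows reached 20 kb to each side, cut at midpoints. Blocks joined H3K27me3 peaks across gaps of at most 5 kb, which was chosen after seeing the data. Named items were the 6 genes, per locus the 3 longest H3K27me3 peaks and the tallest control peak of each antibody, all knockdown peaks of EED and H3K27me3, the peak nearest each gene, and regions where at least 4 antibodies met. Other peaks and regions were picked after their values were seen, the 3-antibody regions and the new uH2A peaks among them. The members and lists were chosen with earlier results of these data known. Other forkhead genes were not analysed here, since no hg19 annotation was used. Alternatives covered the overlap, height, merging and window size. Overlap counting recovered the planted overlaps when tested on artificial lists built from the control peaks, which checks the counting only. Python 3.11.15 with numpy 2.4.6, pandas 2.3.3, scipy 1.17.1 and matplotlib 3.10.9 was used.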

Additional observations from a re-analysis of the deposited data

How the results depend on the processing

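Of 93 alternatives planned for these results, 81 left the value inside its interval or within 1.5-fold. No kept share left its interval with overlaps of at least 50%, knockdown peaks within 1000 bp, taller peaks or merged peaks. Where no control peak was kept, a stricter overlap or a height filter could only leave that share at 0%. H3K27me3 covered 0 kb in knockdown cells at both loci under each setting, but filtering or merging a list without peaks there could give nothing else. All peaks at the loci had heights above 0, so settings that dropped heights of 0 could not change a value. The 81 therefore include outcomes that were fixed in advance. The other 12 changed as follows. With peaks within 1000 bp merged, control H3K27me3 covered 77.7 kb at 6p25. With windows of 10 kb to each side, 1 gene had a control EED peak and 1 a control uH2A mouse peak, in place of 2 and 3. Counting control peaks within 1000 bp, 10.0% of H3K27me3 peaks met RING1A and 19.0% met uH2A rabbit. With at least 50% of the H3K27me3 peak covered, 0% met EED, RING1A or uH2A mouse, and 1.38% met uH2A rabbit, since those peaks are shorter. The densest 6p25 window ranked 21 with windows shifted by 50 kb and 14 with 50-kb windows, and the densest 16q24 window ranked 3 with 50-kb windows. Gaps for blocks of at most 2.5 or 10 kb, added after the data were seen, gave 14 or 5 blocks at 6p25, and 11 blocks at 16q24 with the smaller gap. No paired analysis was possible because each group has 1 library. Unknown depth limits what an absent peak shows.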

Other observations

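Control peaks of several antibodies also met at places in these loci that carried no H3K27me3 peak. The region with the most antibodies, 4, was 1653051 to 1653275 on chromosome 6, 42.1 kb above FOXC1, on the side of GMDS. It joined control peaks of EED, RING1A, BMI1 and uH2A mouse, and no antibody had a knockdown peak there. The BMI1 and uH2A mouse peaks each overlapped the EED and RING1A peaks but not each other. In height the BMI1 and uH2A mouse peaks stood above only 9.34% and 5.51% of their control lists. The RING1A peak stood above 18.9% of its list and the EED peak above 65.1%. At 1423901 to 1424150, 33.9 kb above FOXF2, EED, RING1A and uH2A rabbit met, and at 86451026 to 86451275, 92.7 kb below FOXF1, RING1A and both uH2A antibodies met, again with no knockdown peak. Of 12 control regions at the loci with 3 or more antibodies, these 3 lacked H3K27me3. How often such regions occur over the genome was not counted, so nothing is read from the 3.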
